A study of Mus musculus with 6 samples.

Results

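T cell receptor gene segments are the V, D, J and constant (C) genes of the alpha (Tra), beta (Trb), gamma (Trg, partly named Tcrg) and delta (Trd) loci. A segment was chosen by its annotated biotype and its summed read count, which had to reach 10 over the 6 libraries. This selected 70 of the 270 T cell receptor genes in a table of 54532 genes, namely 34 segments of Trb, 20 of Tra, 10 of Trg and 6 of Trd. The other 200 segments held 425 counts together, and 99 of them were at 0 in every library. The 70 segments held 11203 of the 11628 counts on T cell receptor genes. Of the 18 segments on either side of the threshold, 8 had exactly 10 counts, among them Trav13n-1, Trav9-4 and Trav4-4-dv10, and 10 had 9 counts, among them Trbv30, Trbd2 and Trav9-2. All 9 counts of Trbv30 came from replicate 1 labelled ISM1-/-.

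The study compared lungs of untreated wild-type (WT) C57BL/6J mice, which were purchased, with lungs of ISM1-/- mice made in-house on the same background, all 2 months old. Isthmin 1 (ISM1) is a secreted protein of the lung, and the study asked how its loss alters lung gene expression before any allergen challenge. Each of the 3 mice per genotype gave 1 library from poly-A RNA of perfused whole lung, so n = 3 per genotype, and genotype and animal source cannot be told apart. Total counts ranged from 37606133 to 42345042 per library.

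T cells build their receptor genes in the thymus, where the RAG recombinase joins V, D and J segments, and the joined exon is then spliced to a constant region. A developing alpha-beta T cell rearranges Trb first and Tra later, and terminal transferase (Dntt) adds bases at the joints. Alpha-beta receptors serve helper, regulatory and cytotoxic T cells, while gamma-delta receptors serve lymphocytes that settle early in barrier tissues such as the lung. In bulk RNA fewer T cells and less receptor RNA per cell cannot be told apart.

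The sequences below are from GENCODE release M21 on GRCm38, whose positions matched the count table for all 70 segments. The constant genes of Trb are shown first because some reads on them are hard to assign. Exon 1 of Trbc1 and exon 1 of Trbc2 were identical in 374 of 375 bases (99.7%), with the single substitution C260A counted from 1 at the exon start, Trbc1 first. It is in capitals in the stretches of Trbc1 at chr6:41538447-41538507 and Trbc2 at chr6:41546959-41547019, both on the forward strand.
Trbc1: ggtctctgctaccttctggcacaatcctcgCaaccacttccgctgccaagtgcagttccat
Trbc2: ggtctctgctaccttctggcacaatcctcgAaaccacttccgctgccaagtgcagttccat

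Tcrg-C1 and Tcrg-C2 were identical in 321 of 330 bases of exon 1 (97.3%), and Tcrg-C1 and Tcrg-C4 in 271 of 330 (82.1%). Of all windows of 75 bases, 150 of 850 in Tcrg-C1 and 77 of 840 in Tcrg-C2 also occur in another gene. In Trbc1 it was 233 of 663, in Trbc2 233 of 618 and in Tcrg-C4 0 of 911. The split of counts between Trbc1 and Trbc2, and between Tcrg-C1 and Tcrg-C2, is therefore uncertain for reads inside such stretches. Tcrg-C4 is separable at this length. The study's paired reads were longer than these windows, so the share of reads that cannot be assigned may be smaller and was not measured. The sums over a locus are given beside the single genes.

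The last 60 bases of 6 V segments are shown because these segments recur in the results, as the 3 sister segments of the Trbv13 group and as segments of innate-like gamma-delta T cells. Capitals mark the cysteine codon of the in-frame Tyr-X-Cys motif, after which the joint with D or J begins. They lie on the forward strand at chr6:41116409-41116468, chr6:41121773-41121832, chr6:41130526-41130585, chr14:54075456-54075515, chr13:19185447-19185506 and chr13:19190870-19190929, in the order of the lines.
Trbv13-1: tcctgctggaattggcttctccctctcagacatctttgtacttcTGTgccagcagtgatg
Trbv13-2: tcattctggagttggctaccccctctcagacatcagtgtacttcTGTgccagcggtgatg
Trbv13-3: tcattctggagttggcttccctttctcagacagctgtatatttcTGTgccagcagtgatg
Trdv4: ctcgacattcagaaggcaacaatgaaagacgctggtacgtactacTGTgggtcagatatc
Tcrg-V4: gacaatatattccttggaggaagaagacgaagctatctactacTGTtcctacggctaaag
Tcrg-V6: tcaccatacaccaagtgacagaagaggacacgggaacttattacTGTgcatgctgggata

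The short segments are shown because many Trb counts lie on them although each is shorter than a sequencing read. Trbd1 has 12 bases. Capitals in the J segments mark the codons of Phe-Gly-X-Gly, the motif that opens the last strand of the variable domain, which 17 of the 24 J members and 56 of all 80 J segments held.
Trbd1: gggacagggggc
Trbj1-3: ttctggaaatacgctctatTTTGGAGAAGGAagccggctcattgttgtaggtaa
Trbj1-5: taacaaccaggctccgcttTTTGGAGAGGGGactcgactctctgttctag
Trbj2-7: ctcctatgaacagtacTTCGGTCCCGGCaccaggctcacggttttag

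The targeted gene, Ism1 (chromosome 2, 139678178 to 139758581), was checked first. It had 3098, 3215 and 2975 counts in WT and 2784, 2508 and 2953 in the libraries labelled ISM1-/-, a log2 fold change of −0.19 (SE 0.0709, adjusted p = 0.217). Here and below, adjusted p values are those of edgeR's quasi-likelihood test, adjusted over all genes tested, unless DESeq2 is named. The transcript was kept in the libraries labelled ISM1-/-, so genotype here rests on the labels, and the gene-level counts do not show which part of the gene they cover.

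WT replicate 3 stood apart in genes of T cell development. Rag1, a recombinase subunit, had 1075 counts there and 2 to 20 in the other 5 libraries, and Rag2 had 56 there and 0 in each of the others. Dntt had 390 counts against 2 to 13. Genes of thymic epithelium were high in the same library, with Prss16 at 396 counts against 6 to 20, Psmb11, the thymoproteasome subunit, at 51 against 0 to 2, and Foxn1, the regulator of thymic epithelium, at 18 against 0 to 1. Ptcra, the surrogate alpha chain of thymocytes, had 8 counts against 0 to 1. Of this list of 9 genes, 8 were highest in WT replicate 3 and only Aire, at 3 counts, was not. The summed level of the list was 64.4 CPM (counts per 1000000 of a TMM-scaled library total) there and 8.81 to 10.6 CPM in the others. Tests of the named genes below are therefore also given without this library. Why it differed was not tested.

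The summed level of each locus came first in the comparison of genotypes. The Trb segments together had 22.9, 18.8 and 44.3 CPM in the WT libraries and 40.8, 34.8 and 29.1 CPM in those labelled ISM1-/-. WT replicate 3 was the highest of the 6, and the other 2 WT libraries lay below every library labelled ISM1-/-. The WT mean was 28.7 ± 13.7 CPM (SD, n = 3). The mean of the libraries labelled ISM1-/- was 34.9 ± 5.82 CPM (SD, n = 3), a ratio of 1.22, which became 1.67 without WT replicate 3.

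The Tra segments had 6.79, 5.06 and 6.83 CPM in WT and 12.7, 8.86 and 6.56 CPM labelled ISM1-/-. WT replicate 3 was not set apart here, and ISM1-/- replicate 3 lay inside the WT range. The ratio of means was 1.50, and 1.58 without WT replicate 3. WT replicate 3 thus had 2.13 times the Trb level of the other WT libraries but only 1.15 times their Tra level.

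The Trd segments had 2.44, 1.61 and 2.72 CPM in WT and 5.34, 4.64 and 2.74 CPM labelled ISM1-/-. The groups did not overlap, though the nearest values almost touched, and the ratio of means was 1.88 (2.09 without WT replicate 3). The Trg segments had 3.34, 3.18 and 5.38 CPM in WT and 5.24, 3.98 and 4.64 CPM labelled ISM1-/-. Their highest value was again WT replicate 3, and the ratio of means was 1.16 (1.42 without that library). Locus sums were described without a test. Some low-count members in them, such as Trdj1 and Trdj2, reached 10 counts mainly through libraries labelled ISM1-/-.

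**Figure D1:**
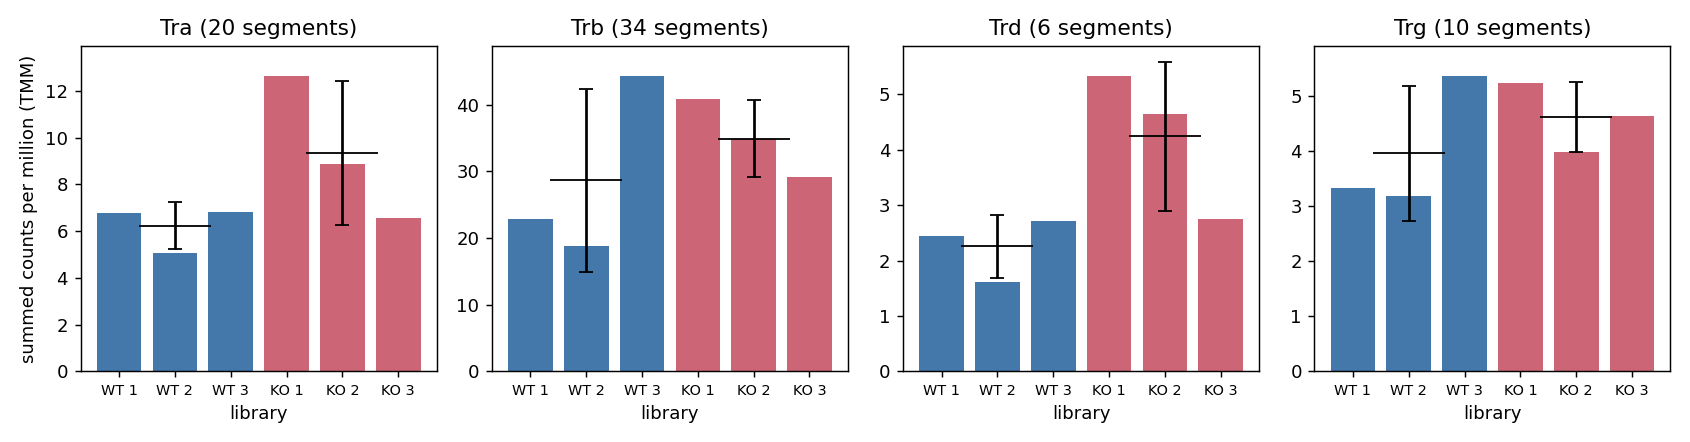
Summed CPM (y axis, TMM-normalized) of the segments of each locus in the 6 libraries (x axis, KO for those labelled ISM1-/-), with the mean and SD of each group in black. Trb reached 44.3 CPM in WT replicate 3 against 18.8 and 22.9 CPM in the other WT libraries, while Tra was 6.83 CPM there and 5.06 and 6.79 CPM in the others.

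The balance between loci was compared between libraries by ratios of counts, which are not per length. The ratio of the Trb total to the Tra total was 3.37, 3.72 and 6.50 in WT and 3.22, 3.93 and 4.44 labelled ISM1-/-. Outside WT replicate 3 it stayed between 3.22 and 4.44, and the groups overlapped. The constant genes alone gave the same order for that library, with Trbc1 plus Trbc2 at 5.33 times Trac in WT replicate 3 and 2.43 to 3.39 times Trac elsewhere.

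Gamma-delta transcripts were set against alpha-beta transcripts in the same way. The ratio of Trd to Tra was 0.359, 0.319 and 0.398 in WT and 0.422, 0.524 and 0.418 labelled ISM1-/-, without overlap between the groups. Trdc over Trac was 0.269, 0.290 and 0.396 in WT and 0.375, 0.452 and 0.290 labelled ISM1-/-, which did overlap. Trg over Trb was 0.146, 0.169 and 0.121 in WT and 0.129, 0.114 and 0.159 labelled ISM1-/-, also with overlap. The groups separated in Trd over Tra, with nearest values of 0.398 and 0.418, and in neither of the other ratios. Without WT replicate 3 Trdc over Trac also separated, with both nearest values at 0.290. The ratios were not tested, and the Trd total includes low-count members that were selected mainly through libraries labelled ISM1-/-. These separations are therefore no support for a shift between the loci.

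**Figure D2:**
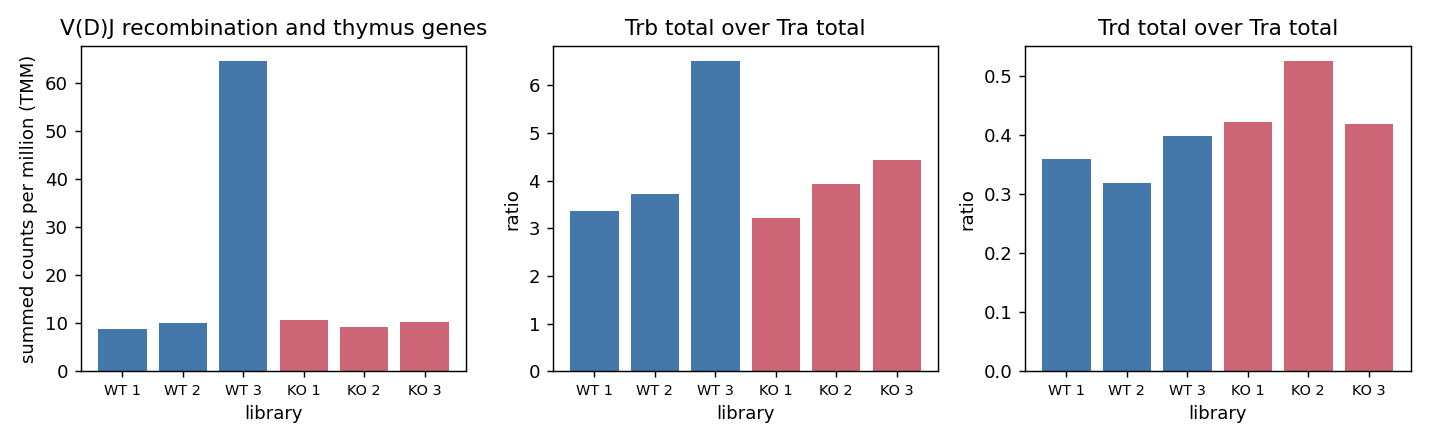
Summed CPM of the 9 V(D)J recombination and thymus genes (left), Trb total over Tra total (middle) and Trd total over Tra total (right), one bar per library. The first panel is at 64.4 CPM and the second at 6.50 in WT replicate 3, while Trd over Tra is 0.398 there, inside the span of the other libraries.

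The constant genes carried 7925 of the 11203 counts (70.7%), and all 7 passed the filter on low counts (0.5 CPM in at least 1 library). None of them differed between the genotypes at an adjusted p under 0.1 in edgeR over the 18689 genes tested. Per length, the order of levels in WT ran from Trbc2 (17.9 ± 9.32 FPKM, SD, n = 3) to Trbc1 (11.3 ± 5.48), Trac (7.93 ± 1.43), Tcrg-C1 (1.23 ± 0.361), Tcrg-C2 (1.15 ± 0.678), Tcrg-C4 (0.943 ± 0.256) and Trdc (0.443 ± 0.138). FPKM are counts divided by gene length and library total. Neighbours in this order differed by less than the larger of their SDs, except Trac and Tcrg-C1, and Tcrg-C4 and Trdc. The WT means without replicate 3 were 12.5 FPKM for Trbc2, 8.18 for Trbc1, 7.62 for Trac, 1.03 for Tcrg-C1, 0.787 for Tcrg-C2, 0.795 for Tcrg-C4 and 0.369 for Trdc. In the libraries labelled ISM1-/- the order was the same down to Tcrg-C2 (0.999 ± 0.111), with Trac at 12.0 ± 3.99 FPKM, and there Trdc (0.794 ± 0.338) lay beside Tcrg-C4 (0.753 ± 0.246).

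Trbc2, the more abundant beta constant gene, had 349, 334 and 763 counts in WT and 708, 503 and 433 labelled ISM1-/-. Trbc1 had 220, 181 and 420 counts in WT and 408, 380 and 303 labelled ISM1-/-. In both genes WT replicate 3 was the highest library and the other WT libraries were the lowest. Their log2 fold changes over all libraries were 0.15 (SE 0.29, adjusted p = 0.867) and 0.38 (SE 0.28, adjusted p = 0.563). Without WT replicate 3 they were 0.66 (SE 0.17, adjusted p = 0.127) and 0.84 (SE 0.17, adjusted p = 0.0842), so Trbc1 passed an adjusted p of 0.1 there, below a 2-fold change.

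Trac, the only alpha constant gene, had 227, 176 and 222 counts in WT and 459, 299 and 217 labelled ISM1-/-. Replicates 1 and 2 labelled ISM1-/- exceeded WT and replicate 3 did not, with a log2 fold change of 0.60 (SE 0.23, adjusted p = 0.222) and of 0.66 (adjusted p = 0.322) without WT replicate 3. DESeq2 gave Trac 0.61 with an adjusted p of 0.0844, the only segment it called at 0.1. Without ISM1-/- replicate 3 the edgeR value of Trac was 0.81 (adjusted p = 0.0478).

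Trdc, the delta constant gene, had 61, 51 and 88 counts in WT and 172, 135 and 63 labelled ISM1-/-. Its pattern was that of Trac, with replicate 3 labelled ISM1-/- inside the WT range, and its log2 fold change was 0.85 (SE 0.34, adjusted p = 0.249). It was 1.11 (adjusted p = 0.222) without WT replicate 3 and 1.16 (adjusted p = 0.0393) without ISM1-/- replicate 3. Trdv5, at 20 counts, overlaps Trdc on the opposite strand, so their reads may not be separable.

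The gamma constant genes moved little. Tcrg-C1 had 32, 44 and 58 counts in WT and 77, 46 and 66 labelled ISM1-/- (log2 fold change 0.47, SE 0.27, adjusted p = 0.446). Tcrg-C2 had 36, 20 and 66 counts in WT and 34, 38 and 37 labelled ISM1-/- (−0.19, SE 0.40, adjusted p = 0.877). Tcrg-C4 had 29, 33 and 47 counts in WT and 43, 21 and 26 labelled ISM1-/- (−0.31, SE 0.32, adjusted p = 0.708). All 3 were at their WT maximum in WT replicate 3, and without it their log2 fold changes were 0.72, 0.36 and −0.07, with adjusted p values of 0.32, 0.756 and 0.963.

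Of the 70 segments, 26 passed the filter, made up of the 7 constant genes, 11 V segments and 8 J or D segments. Of these, 7 passed only through libraries labelled ISM1-/-, so they were bound to look higher there. At an adjusted p under 0.1, 1 segment was higher and 0 were lower in the libraries labelled ISM1-/- (1.38% and 3.34% of all genes tested), and the same segment was the only one past 2-fold as well (0.284% of all genes in each direction). No segment was lower at an unadjusted p under 0.05 or in DESeq2 either. Without WT replicate 3, 1 segment, Trbc1, was higher and 0 were lower at an adjusted p under 0.1, where 0.473% and 1.36% of genes were called.

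The segment called over 6 libraries was Trbv13-3, one of the beta V segments of the Vβ8 family. It had 6, 6 and 3 counts in WT and 22, 14 and 17 labelled ISM1-/-, without overlap, as for 8.37% of all genes with at least 10 counts. Its log2 fold change was 1.77 (SE 0.43, adjusted p = 0.0652), and 1.52 (adjusted p = 0.194) without WT replicate 3. It was among the 7 segments that passed the filter only through libraries labelled ISM1-/-, and when single libraries were omitted its adjusted p stayed below 0.1 in 1 fit of 6. DESeq2 gave it no adjusted p, because of its low counts. The sister segments behaved differently by count. Trbv13-2, the most abundant V segment, had 22, 18 and 36 counts in WT and 52, 31 and 38 labelled ISM1-/- (0.64, SE 0.33, adjusted p = 0.389, and 0.99 with adjusted p = 0.248 without WT replicate 3), and Trbv13-1 had 16, 6 and 29 in WT and 22, 8 and 4 labelled ISM1-/- (−0.63, SE 0.65, adjusted p = 0.712, and 0.0042 with adjusted p = 0.998 without WT replicate 3). The differences between the sisters were not tested.

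**Figure D3:**
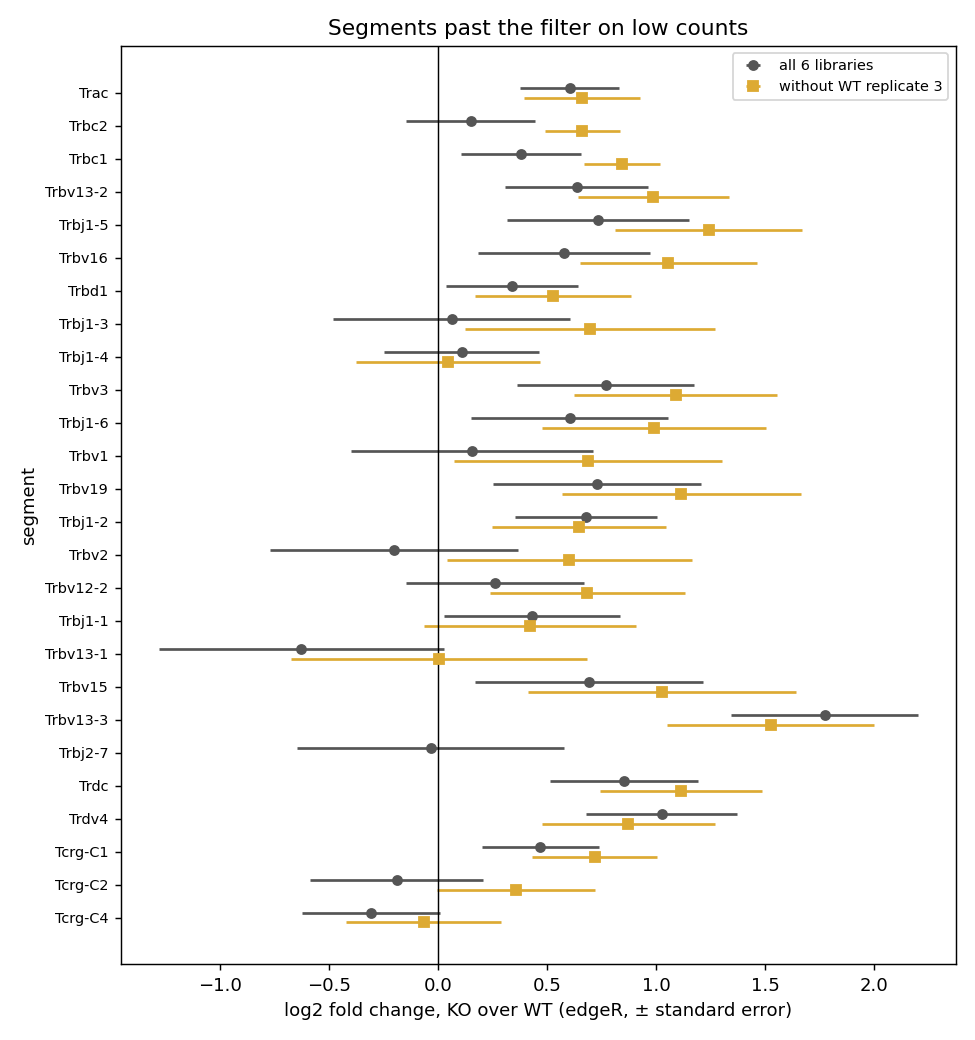
Log2 fold changes (x axis, libraries labelled ISM1-/- over WT, with standard errors, edgeR) of the 26 segments that passed the filter (y axis), with all libraries (grey circles) and without WT replicate 3 (yellow squares). Without that library Trbc2 moves from 0.15 to 0.66 and Trbc1 from 0.38 to 0.84, while Trac moves only from 0.60 to 0.66, and Trbj2-7 no longer passes the filter.

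Over all 70 segments, in a fit of the 24561 genes with at least 10 counts, the log2 fold change was above 0 for 54 and below 0 for 16, with a median of 0.46 beside 0.00183 for all genes. Higher values at an unadjusted p under 0.05 were found for 6 of the 70 segments, where 5.66% of all genes were called, and lower ones for 0, where 7.94% were. Libraries labelled ISM1-/- lay above WT without overlap for 8 of the 70 (11.4%, beside 8.37% of all genes) and below for 0 (11% of all genes). Without WT replicate 3, 23 of the 70 lay above (32.9%, beside 13.4% of all genes) and 0 below (15.6% of all genes). Of these 23, 16 were Trb segments, whereas only 3 of the 34 Trb segments lay above over 6 libraries. WT replicate 3 was the highest library for 13 of the 34 Trb segments and for 20 of all 70, beside 13.7% of all genes. Leaving it out therefore favours upward separation in these segments more than in other genes. The count of 23 is thus no support for a difference. Replicate 1 labelled ISM1-/- was the highest for 29 of the 70, beside 17.2% of all genes.

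The V segments of Trb were spread evenly. The 17 members shared 155, 154 and 313 counts in WT and 351, 245 and 237 labelled ISM1-/-, and each of the 17 was found in every library. Their effective number (the exponential of the Shannon entropy of their shares) was 14.7, 15.6 and 15.1 in WT and 15.2, 14.8 and 14.0 labelled ISM1-/-, so the evenness of the makeup overlapped between the groups, WT replicate 3 included.

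Trbv13-2 took the largest share in every library, 12.5% ± 1.50 (SD, n = 3) of the Trbv counts in WT and 14.5% ± 1.71 (SD, n = 3) labelled ISM1-/-. Trbv16 took 8.59% ± 0.308 in WT and 10.2% ± 3.96 labelled ISM1-/-, and Trbv3 took 6.77% ± 2.01 and 8.98% ± 3.43. The shares of these 3 segments overlapped between the groups. Trbv13-3 had 2.91% ± 1.69 in WT and 6.39% ± 0.736 labelled ISM1-/-, and Trbv12-2 had 6.45% ± 0.0522 and 5.83% ± 0.486. Of the 17 shares only these 2 did not overlap, Trbv13-3 above WT and Trbv12-2 below. By CPM, 8.37% of all genes with at least 10 counts lay above WT without overlap and 11% below. The 2 shares are therefore no support for a difference in makeup.

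**Figure D4:**
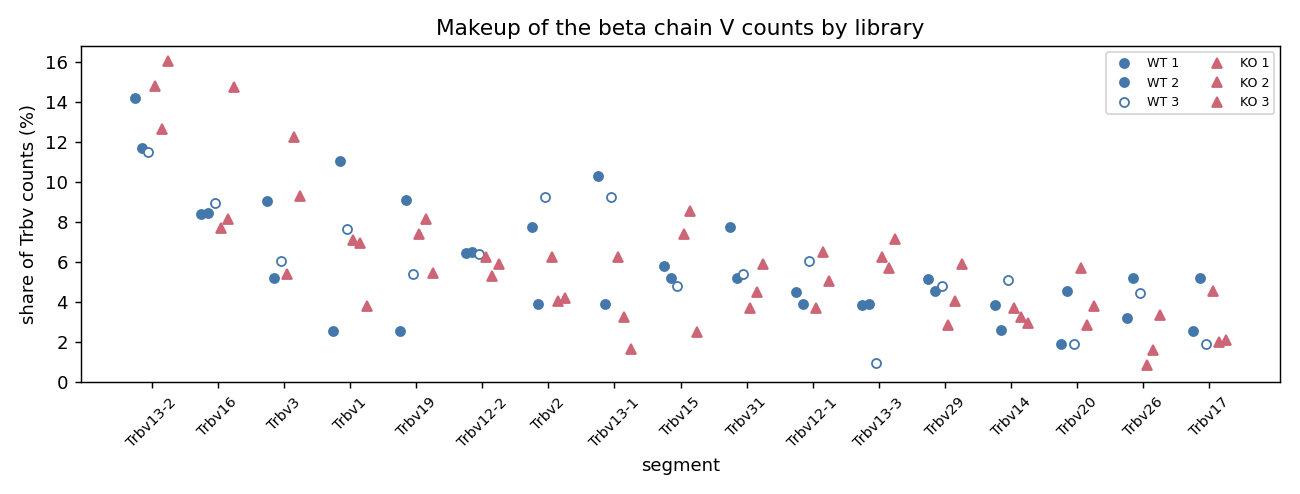
Share of each of the 17 Trbv segments (x axis) in the Trbv counts of a library (y axis, percent), with WT as blue circles, WT replicate 3 as an open circle and libraries labelled ISM1-/- (KO) as red triangles. Trbv13-2 leads with 11.5% to 16.0%, and WT replicate 3 lies among the other libraries for most segments, with its lowest share, 0.958%, in Trbv13-3.

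The J segments of Trb lie in 2 clusters, one before Trbc1 and one before Trbc2. The 7 Trbj1 segments had 734 counts and the 7 Trbj2 segments had 229 over the 6 libraries, which is 2097 and 668 counts per kilobase of segment. The ratio of Trbj1 to Trbj2 counts was 3.52, 5 and 2.06 in WT and 3.55, 3.94 and 3 labelled ISM1-/-, so Trbj1 prevailed in every library and least in WT replicate 3. The constant genes had the opposite order, with Trbc2 over Trbc1 at 1.59, 1.85 and 1.82 in WT and 1.74, 1.32 and 1.43 labelled ISM1-/-.

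Trbj1-5 had the most counts of all J segments, with 12, 14 and 29 in WT and 47, 22 and 25 labelled ISM1-/- (log2 fold change 0.73, SE 0.42, adjusted p = 0.443, and 1.24 with adjusted p = 0.242 without WT replicate 3). Trbd1, the first beta D segment, had 17, 16 and 23 counts in WT and 25, 24 and 23 labelled ISM1-/-, a total of 128 on its 12 bases. The second D segment, Trbd2, had 9 in all. Trbj1-2 was the only J segment of at least 10 counts on average whose groups did not overlap, with 11, 13 and 11 counts in WT and 22, 16 and 19 labelled ISM1-/- (0.68, SE 0.33, adjusted p = 0.354, and 0.65 with adjusted p = 0.551 without WT replicate 3). It passed the filter only through libraries labelled ISM1-/-, so it was bound to look higher there. Of all genes with at least 10 counts, 8.37% lay above WT without overlap. How a segment shorter than a read collects counts depends on the counting program, which is not given in the sources used here, so the levels of D, J and V segments are not on one scale.

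**Figure D5:**
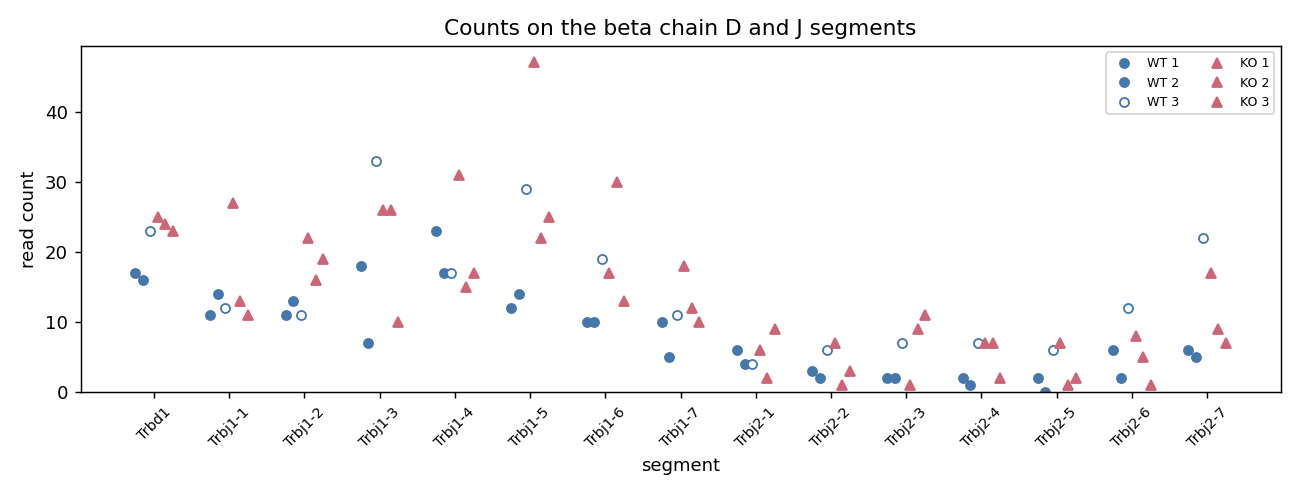
Read counts (y axis) of Trbd1 and of the 14 Trbj segments (x axis) in each library, with WT as blue circles, WT replicate 3 as an open circle and libraries labelled ISM1-/- (KO) as red triangles. Trbj1 segments reach 47 counts and Trbj2 segments 22, and WT replicate 3 is the highest library in Trbj1-3, Trbj2-6 and Trbj2-7.

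The V segments of Tra were near the limit of detection. The 13 Trav members had 18, 23 and 25 counts together in WT and 52, 31 and 32 labelled ISM1-/-, without overlap. Some of them, such as Trav13-2 and Trav3-3, reached 10 counts mainly through libraries labelled ISM1-/-, so this separation is no support for a difference. None of the 13 reached 0.5 CPM. The J members were as low, with 24 counts on Traj1 and 14 on Traj17. The 3 most abundant V segments were Trav14n-3 with 22 counts, Trav13-1 with 21 and Trav5-4, of whose counts 10 came from replicate 1 labelled ISM1-/-. Trav counts were 0.0793 to 0.147 times those of Trac (not per length), whereas Trbv counts were 0.265 to 0.322 times those of Trbc1 plus Trbc2. Many alpha V genes are near copies. Of the 128 Trav genes, 62 shared at least 50% of their 75-base windows with another gene and held 50 counts, while the other 66 held 337. In Trb only 3 of 35 V genes were shared to that extent. The part of this in the low Trav counts was not tested.

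Among the gamma-delta V segments, Trdv4 had the most counts. It is the V segment paired with Tcrg-V6 in lung and other barrier tissues, and had 23, 12 and 12 counts in WT and 38, 30 and 30 labelled ISM1-/-. The groups did not overlap, as for 8.37% of all genes with at least 10 counts, which lay above WT. WT replicate 3 was among the lowest libraries. The log2 fold change was 1.02 (SE 0.35, adjusted p = 0.174), or 0.87 (adjusted p = 0.387) without WT replicate 3, so Trdv4 was not called in either fit. Its call depended on the libraries, since the adjusted p was 0.0871 without WT replicate 1.

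Tcrg-V6 had 2, 4 and 2 counts in WT and 8, 7 and 4 labelled ISM1-/-, just without overlap on the CPM scale. Again, 8.37% of all genes with at least 10 counts lay above WT without overlap. Tcrg-V4, the V segment of another innate-like lung subset, had 0, 10 and 5 counts in WT and 16, 13 and 8 labelled ISM1-/-. Trgv2, the most abundant gamma V segment, had 10, 7 and 19 counts in WT and 20, 14 and 17 labelled ISM1-/-, and Tcrg-V1 had 5, 5 and 7 against 8, 5 and 7 counts. These 4 segments were tested only in the fit of genes with at least 10 counts, where their adjusted p values in edgeR were 0.456, 0.477, 0.715 and 0.917. Trgj4 had 32 counts in all and Trgj1 had 17, while in Trd the segments Trdv2-2, Trdj2 and Trdj1 had 17, 12 and 10. Tcrg-V5 had 4, 4 and 0 counts in WT and 4, 0 and 4 labelled ISM1-/-. The antisense gene Gm31887, with 12 counts, overlaps Tcrg-V4, Tcrg-V5 and Tcrg-V6.

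Segments of invariant receptors were at or near 0. Trav11 and Trav11d, used by natural killer T cells, had 0 counts in every library. All of their 75-base windows also occur in another gene, as for 42 segments in all, each of which was at 0 counts, so no limit on their expression can be taken from this 0. Their partner Traj18 had 2 counts in all. Trav1 and Traj33 of mucosal-associated invariant T cells had 4 and 1. Tcrg-V7, typical of gut gamma-delta cells, shares no window with another gene and had 0 counts, which allows up to 3 counts or 0.0706 to 0.0796 CPM per library. For Traj18, Trav1, Traj33 and Tcrg-V7 a difference between the genotypes was not detectable at this depth.

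Genes that act with the receptor were compared from lists made by function. Of 30 genes of the receptor complex and its proximal signalling, 29 had a log2 fold change above 0 (median 0.29, beside 0.0043 for all genes), and 4 rose and 0 fell at an adjusted p under 0.1 in edgeR, where 1.38% and 3.34% of genes did. These were Icos, a costimulatory receptor (0.71, adjusted p = 0.0446), Ptprc, the phosphatase CD45 (0.40, adjusted p = 0.0546), Cd2, an adhesion receptor (0.42, adjusted p = 0.0607), and Grap2, an adaptor protein (0.40, adjusted p = 0.0849). Without WT replicate 3 the fold changes of these 4 genes were 0.73, 0.40, 0.42 and 0.45, with adjusted p values of 0.122, 0.154, 0.162 and 0.14. The median was then 0.52 and 1 gene passed, where 0.473% of genes rose, namely Trat1, an adaptor of the receptor complex (1.37, adjusted p = 0.063). The counts of Trat1 were 32, 38 and 107 in WT and 97, 78 and 98 labelled ISM1-/-. DESeq2 called 7 genes of this list, and 14 without WT replicate 3. Over all genes it called 466 of 18689 higher, and 252 of 18597 without WT replicate 3.

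The CD3 subunits, without which the receptor does not reach the cell surface, were less raised in WT replicate 3 than the beta constant genes. Cd3e had 209, 195 and 303 counts in WT and 483, 286 and 270 labelled ISM1-/- (0.52, SE 0.22, adjusted p = 0.295), and Cd3g had 233, 202 and 292 against 437, 335 and 284 (0.51, SE 0.18, adjusted p = 0.184). Their log2 fold changes were 0.75 (adjusted p = 0.166) and 0.67 (adjusted p = 0.134) without WT replicate 3. Cd3d and Cd247 changed less, at 0.38 (adjusted p = 0.535) and 0.23 (adjusted p = 0.536). Without that library they had 0.67 (adjusted p = 0.288) and 0.33 (adjusted p = 0.483). Trbc1 plus Trbc2 was 3.90 times Cd3e in WT replicate 3 and 2.31 to 3.09 times Cd3e elsewhere, while Trac was 0.733 times Cd3e there and 0.804 to 1.09 times elsewhere. The coreceptors were high in WT replicate 3 as Trb was. Cd4 had 230, 206 and 501 counts in WT and 445, 365 and 268 labelled ISM1-/-. Cd8a had 226, 271 and 561 against 569, 335 and 313, and Cd8b1 had 175, 156 and 350 against 325, 240 and 214. Their log2 fold changes were 0.17, 0.16 and 0.16 (adjusted p = 0.858, 0.865 and 0.852). Without WT replicate 3 they were 0.70, 0.69 and 0.63 (adjusted p = 0.149, 0.191 and 0.17). In each gene the other WT libraries lay below every library labelled ISM1-/-. Themis, a signalling protein of thymocytes and T cells, had 95, 95 and 276 counts in WT and 146, 137 and 128 labelled ISM1-/-. Its log2 fold change was −0.21 (adjusted p = 0.853), and 0.52 (adjusted p = 0.242) without WT replicate 3.

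Lymphocyte markers were measured beside the receptor genes. The 6 T cell defining markers together had 44.5, 41.4 and 57.8 CPM in WT and 80.6, 63.0 and 52.4 CPM labelled ISM1-/-, and 1 of 6, Cd2, rose at an adjusted p under 0.1. The 6 NK cell markers had 48.1, 30.2 and 29.0 CPM in WT and 77.1, 59.1 and 57.5 CPM labelled ISM1-/-, and 5 rose. The 7 B cell markers had 131, 122 and 138 CPM in WT and 250, 190 and 140 CPM labelled ISM1-/-, and 3 rose. Of all genes, 1.38% rose at an adjusted p under 0.1. Without WT replicate 3 none of these 3 lists had a gene with an adjusted p under 0.1 in edgeR, while 6 of 6, 5 of 6 and 6 of 7 had an unadjusted p under 0.05. Of all 18597 genes tested there, 966 were higher at an unadjusted p under 0.05. The summed markers of these 3 classes were highest in replicate 1 labelled ISM1-/-. NK cell markers were lowest in WT replicate 3, where Trb was highest. Their part in the receptor levels was not tested.

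Of the 12 gamma-delta and IL-17 lymphocyte genes, 10 passed the filter and 3 rose, where 1.38% of all genes did. Cd163l1, the scavenger receptor of gamma-delta T cells, had 68, 92 and 79 counts in WT and 247, 208 and 101 labelled ISM1-/- (1.19, SE 0.28, adjusted p = 0.0577), and 1.20 (adjusted p = 0.145) without WT replicate 3. Blk, a kinase shared with B cells, had a log2 fold change of 0.74 (adjusted p = 0.0817), and 0.78 (adjusted p = 0.163) without WT replicate 3. Zbtb16, a transcription factor of innate-like T cells that other lung cells also use, had 874, 545 and 510 counts in WT and 2483, 2530 and 11147 labelled ISM1-/- (3.05, SE 0.57, adjusted p = 0.0297), and 2.92 (adjusted p = 0.0985) without WT replicate 3, when it alone of the 10 passed. The cytokine genes Il17a and Il17f had at most 3 counts in any library.

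Among the naive and memory alpha-beta T cell genes, Lef1, a transcription factor of naive T cells (0.44, adjusted p = 0.0466), and Il7r, the receptor for interleukin 7 (0.46, adjusted p = 0.0298), rose. Without WT replicate 3, Il7r passed (0.47, adjusted p = 0.0985) and Lef1 did not (0.44, adjusted p = 0.139). Lymph node and stroma markers gave no common pattern. Ccl21a, Ccl19 and Madcam1 had at most 3 counts in any library, and Glycam1, a product of lymph node venules, had 57 counts in replicate 1 labelled ISM1-/- and 0 in the others. Ccl21a and Ccl19 each have a second annotated entry, at 0 counts in every library. How reads that match both entries were counted is not given, so no limit on their expression can be taken from these counts.

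Markers of heart, fat and lung were listed as well. The 10 cardiomyocyte markers had 1804, 603 and 714 CPM in WT and 325, 453 and 646 CPM labelled ISM1-/-, with 1 gene lower at an adjusted p under 0.1, where 3.34% of all genes were. The 5 adipocyte markers had 104, 81.3 and 84.5 CPM in WT and 23.5, 27.8 and 50.9 CPM labelled ISM1-/-, with 5 lower. The 4 lung markers had 38007, 38620 and 40183 CPM in WT and 31133, 32323 and 33272 CPM labelled ISM1-/-, with 1 lower. This was Scgb1a1 (log2 fold change −0.51, adjusted p = 0.027). The summed cardiomyocyte markers overlapped between the groups, while the summed adipocyte and lung markers did not. The numbers lower were 0, 4 and 1 without WT replicate 3, where 1.36% of all genes were. WT replicate 3 was not set apart in these lists, and their part in the receptor levels was not tested.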

How the data were processed

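Lung RNA of 3 WT and 3 ISM1-/- mice was analysed, with groups taken from the labels. Per the study's methods, the authors used STAR for mapping to GRCm38. They deposited raw counts per gene and FPKM, which are scaled by depth and gene length. The counting program, annotation release and strand setting are not given in the sources used here. Members and gene lists were chosen with earlier results of these data known.

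The counts were tested with edgeR 4.0.16 in R 4.3.3 on 18689 genes (0.5 CPM or more in 1 library or more). TMM scaling, the quasi-likelihood test and Benjamini-Hochberg adjustment over all genes were used. A call needed an adjusted p under 0.1 and, where stated, a 2-fold change. Fold changes are ISM1-/- over WT. Alternatives were DESeq2 1.42.0, other scalings and filters, a replicate block and the omission of single libraries. DESeq2 without WT replicate 3 was added after seeing the data. The tests were tried on simulated data, and every pair of libraries differed by more than sampling noise. Named segments were the constant genes, the 3 V and 2 J or D segments with the most counts per locus, those with an adjusted p under 0.1, those without overlap at a mean of at least 10 counts, those of invariant receptors, those beside the threshold, and list genes. Others, such as Trbv13-1, Trbv12-2 and most Trbj segments, were named after their values were seen. One list gene is not reported here. Sequences came from GENCODE M21.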

Additional observations from a re-analysis of the deposited data

How the results depend on the processing

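Counts below 10 per library, as for most V and J segments, limit every statement on single segments, and 44 of the 70 were below the filter. Segments past the adjusted p and 2-fold thresholds numbered 1 over all libraries. There were 0 with DESeq2 (which gave Trbv13-3 no adjusted p), with 0.5 CPM in at least 3 libraries or at an adjusted p of 0.05, and 0 to 2 with single libraries omitted. Segments with an adjusted p under 0.1 numbered 1, 0 with the stricter filter and 0 to 3 leaving out single libraries, and 3 in DESeq2 without WT replicate 3. At an unadjusted p under 0.05 there were 4, with 1 to 10 leaving out single libraries and 7 in DESeq2 without WT replicate 3. The 10 came without WT replicate 3, when 15 of the 25 segments tested passed the filter only through libraries labelled ISM1-/-, so this count is no support for a difference. Receptor complex genes with an adjusted p under 0.1 numbered 4, 7 in DESeq2, 0 to 10 leaving out single libraries and 14 in DESeq2 without WT replicate 3.

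Leaving out each library gave log2 fold changes of −0.083 to 0.66 for Trbc2, 0.13 to 0.84 for Trbc1, 0.60 to 1.16 for Trdc, 0.34 to 0.81 for Trac and −0.54 to 0.36 for Tcrg-C2. Among the other segments whose sign turned, the ranges were −0.27 to 0.69 for Trbv1, −0.62 to 0.60 for Trbv2, −1.46 to 0.0042 for Trbv13-1, −0.36 to 0.70 for Trbj1-3, −0.22 to 0.30 for Trbj1-4 and −0.43 to 0.19 for Trbj2-7. DESeq2 without WT replicate 3 gave 0.85 for Trbc1, 0.66 for Trbc2, 1.12 for Trdc, 0.36 for Tcrg-C2 and 0.59 for Trbv2, and DESeq2 over 6 libraries gave 0.61 for Trac. The log2 ratio of Trg totals moved from 0.22 to 0.66 and that of Trg over Trb from −0.12 to 0.16 when only V segments were summed. The causes were not tested beyond the library left out. With the replicate block, 1 segment passed both thresholds as without it, Trbj2-7 had 0.061 in place of −0.03, and no call on a segment changed. With it, 2 thymus genes fell in place of 0. Samples that share a number are different mice, and their deviations correlated at −0.027, 0.031 and 0.037, so the number is no pairing.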
